A study of Mus musculus with 2 samples.

Results

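Nos2, Nos3, Arg1, Arg2, Ass1, Slc7a2, Odc1 and Acod1 encode the enzymes that make nitric oxide from arginine, the arginases that compete for the same substrate, the transporter and the recycling enzyme that supply it, the first enzyme of polyamine synthesis and the enzyme that makes itaconate. They were taken by gene symbol from the matrices of both single-cell libraries, and all 8 were among the 23197 genes listed in both. One library came from mice labelled Elf-1 KO (Elf-1-/-) and the other from WT mice, all of them C57BL/6, 8 to 10 weeks old and treated with dextran sulfate sodium (DSS), which damages the lining of the colon and is a common model of colitis. Tissue of proximal colon, distal colon and rectum from 3 mice was pooled for each library, so that every group is 1 library, no value can be assigned to a mouse, and all intervals cover counting error only. The DSS dose, the days of treatment, the deleted part of Elf1 and the cells in which it was deleted are not stated in the labels, and no untreated colon was analysed here.

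Arginine enters cells through cationic amino acid transporters and has several competing fates. Nitric oxide synthases turn it into nitric oxide and citrulline, arginases turn it into urea and ornithine, and ornithine decarboxylase passes ornithine on to the polyamines that dividing cells need; argininosuccinate synthase turns citrulline back towards arginine. Aconitate decarboxylase draws instead on the citric acid cycle, and its product itaconate, known from activated macrophages and neutrophils, inhibits succinate dehydrogenase.

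On GRCm38, in the GENCODE annotation, Nos2 spans chr11:78920787-78960254 on the plus strand, Nos3 chr5:24364810-24384474 (plus), Arg1 chr10:24915221-24927484 (minus), Arg2 chr12:79130777-79156301 (plus), Ass1 chr2:31470207-31520672 (plus), Slc7a2 chr8:40862396-40922308 (plus), Odc1 chr12:17544794-17551505 (plus) and Acod1 chr14:103046977-103056573 (plus). Each is annotated as protein coding. RefSeq promoters on GRCm38.p6, from 250 bases before to 50 bases after the start site, were matched for 3 of them, Acod1, Ass1 and Odc1. All 3 matched promoters are shown, because Elf1 belongs to the ETS family of transcription factors, which bind around a GGAA core. Capitals mark matches on either strand to GGAAGT (the ETS core followed by GT), CACGTG (the E-box), TGA, any base and TCA (the AP-1 site) or TATAAA (the TATA box), and no match overlapped another. GGAA followed by other letters was not searched, and it stands unmarked in these windows. The windows are chr14:103046762-103047061 for Acod1, chr2:31470020-31470319 for Ass1 and chr12:17544623-17544922 for Odc1, all on the plus strand.
Acod1: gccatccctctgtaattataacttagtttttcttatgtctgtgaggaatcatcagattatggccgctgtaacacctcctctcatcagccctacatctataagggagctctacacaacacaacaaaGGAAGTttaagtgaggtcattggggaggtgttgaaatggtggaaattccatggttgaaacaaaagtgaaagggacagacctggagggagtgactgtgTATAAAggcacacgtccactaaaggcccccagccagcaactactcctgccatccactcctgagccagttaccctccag
Ass1: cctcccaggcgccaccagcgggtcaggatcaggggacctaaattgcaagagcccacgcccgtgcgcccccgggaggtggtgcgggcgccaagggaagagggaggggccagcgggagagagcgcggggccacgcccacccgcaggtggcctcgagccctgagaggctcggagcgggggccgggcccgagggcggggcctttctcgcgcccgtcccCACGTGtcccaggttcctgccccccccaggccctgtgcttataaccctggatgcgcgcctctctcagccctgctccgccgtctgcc
Odc1: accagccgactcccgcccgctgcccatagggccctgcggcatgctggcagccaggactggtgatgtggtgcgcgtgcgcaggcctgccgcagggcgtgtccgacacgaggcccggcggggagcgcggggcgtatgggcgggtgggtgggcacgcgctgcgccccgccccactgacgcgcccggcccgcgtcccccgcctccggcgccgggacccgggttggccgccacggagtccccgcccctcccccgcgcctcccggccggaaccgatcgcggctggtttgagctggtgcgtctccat

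The Acod1 promoter held 1 GGAAGT, which 23.8% of 32851 promoters of the same length hold, and 1 TATAAA, which 13.6% hold. The Ass1 promoter held 1 CACGTG, present in 7.15% of promoters. The AP-1 site, found in 7.81% of promoters, was in none of the 3 windows, and the Odc1 window held no match to any motif searched. These matches describe letters in 300 bases and say nothing of binding.

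The library labelled Elf-1 KO held 10012 barcodes and 39750319 unique molecular identifiers (UMIs, each standing for a captured molecule), and WT held 8635 barcodes and 32481613 UMIs. Of these, 9504 cells of the library labelled Elf-1 KO and 7718 of WT were kept, at medians of 2638 and 2029.5 UMIs. Elf1 itself was at 180 CPM (UMIs of the gene per 1000000 UMIs of the cells summed) over all cells of the library labelled Elf-1 KO and 192 CPM in WT (ratio 0.942, 95% interval 0.909 to 0.976), which does not check the label, since the counted reads may lie outside the deleted part. Epithelium was 0.873% of the cells in the library labelled Elf-1 KO and 13.9% in WT, while neutrophils were 13.3% in the library labelled Elf-1 KO and 2.15% in WT. In each library 44 kept cells shared a barcode with the other, and no call below changed without them.

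RNA of other cells lay in every class and differed between the libraries. The 16 neutrophil markers summed to 623 to 12911 CPM in the 8 other compared classes of the library labelled Elf-1 KO, against 90.4 to 1688 CPM in WT, with ratios of 4.67 to 15.7. Between 15 and 16 of them were detected in the library labelled Elf-1 KO and 10 to 15 in WT, with Ly6g at 0 in B cells, dendritic cells and smooth muscle cells and pericytes of the library labelled Elf-1 KO. The 20 epithelial markers summed to 51.3 to 113 CPM in the library labelled Elf-1 KO and 307 to 657 CPM in WT outside epithelium.

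Levels below are UMIs summed over the cells of a class, in CPM of that class, and ratios are the library labelled Elf-1 KO over WT, with 95% intervals in parentheses. The 9 classes of 100 cells or more in both libraries were compared, and 49 of 72 member-by-class pairs had at least 20 UMIs. Of these, 23 pairs were at least 2-fold higher in the library labelled Elf-1 KO, or 46.9%, beside 7.12% of all 81555 gene-by-class pairs. At least 2-fold lower were 5 pairs, or 10.2%, beside 10.6% of all, so that the lower share lay near the background. Among the 23 higher pairs, 16 had under 20 UMIs in WT and passed the filter through the library labelled Elf-1 KO, and 7 had 20 or more in each. Separately, 7 of the 23 lay under 3 times the bound for free RNA, the lowest mean of the gene in UMIs per cell among the classes of the same library.

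By class, 4 of 7 members were higher and 0 lower in fibroblasts, where 4.42% of all genes were higher and 15.5% lower. Macrophages and monocytes had 4 of 7 higher (6.56% of all genes) and 1 lower (8.91%). T and innate lymphoid cells had 4 of 5 higher (7.79%) and 0 lower (5.68%). Endothelium had 3 of 7 higher (5.29%) and 0 lower (9.98%), and B cells had 2 of 4 higher (6.21%) and 0 lower (8.48%). Smooth muscle cells and pericytes had 2 of 5 higher (7.1%) and 1 lower (14.5%), and plasma cells 2 of 5 higher (6.16%) and 1 lower (8.63%). Dendritic cells had 1 of 4 higher (13.4%) and 1 lower (10.8%), and neutrophils 1 of 5 higher (12.9%) and 1 lower (11.6%). The median log2 ratio of all genes was -0.34 in fibroblasts, -0.19 in smooth muscle cells and pericytes, -0.12 in endothelium and -0.12 in macrophages and monocytes, and within 0.1 of zero elsewhere, so that a member at a ratio of 1 in these 4 classes stood above the middle of its class.

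**Figure D1:**
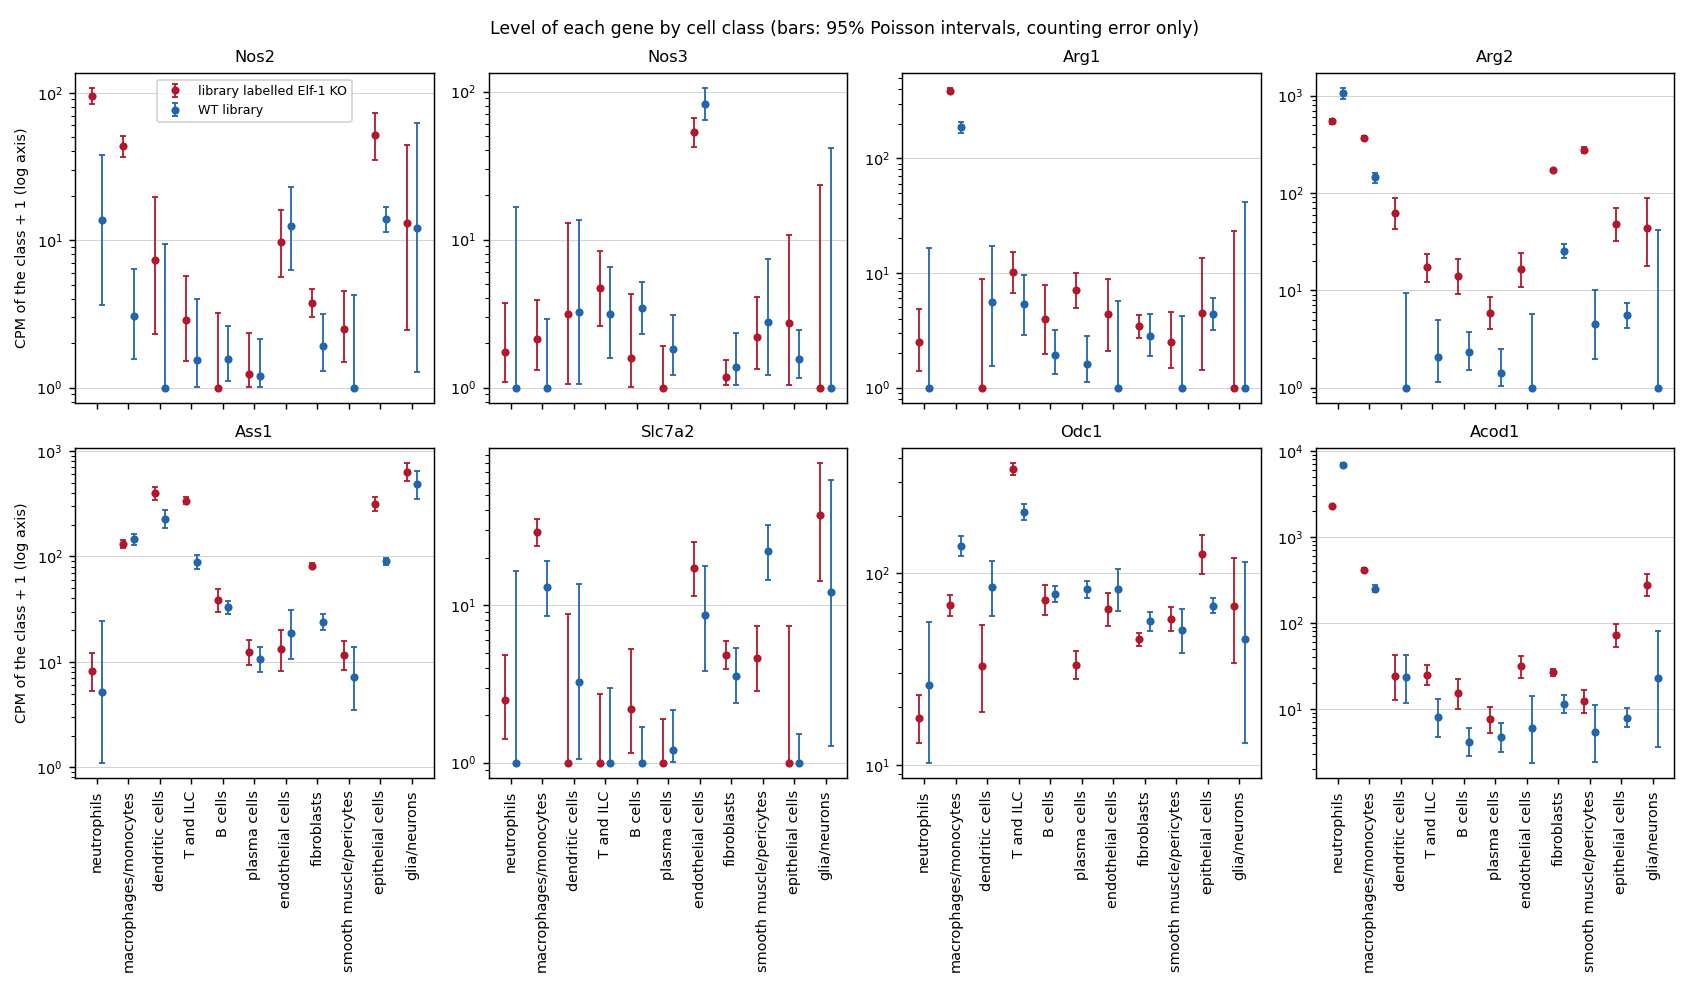
Level of each of the 8 genes by cell class, as CPM of the class plus 1 on a log axis, with 95% Poisson intervals for counting error; red, at left, is the library labelled Elf-1 KO and blue, at right, WT. Acod1 was highest in neutrophils of both libraries, and Arg2 in smooth muscle cells and pericytes was at 275 CPM in the library labelled Elf-1 KO and 3.52 CPM in WT. Most cells of that class lay in different clusters in the libraries.

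Slc7a2, the cationic amino acid transporter CAT2 that carries arginine into macrophages, had few UMIs, 212 in the library labelled Elf-1 KO and 70 in WT, and went in opposite directions in macrophages and monocytes and in smooth muscle cells and pericytes. Macrophages and monocytes were at 28.2 CPM in the library labelled Elf-1 KO (22.9 to 34.2) and 12 CPM in WT (7.59 to 18.0), a ratio of 2.35 (1.48 to 3.88). These intervals did not overlap, but 10 of the 23 WT UMIs lay in 1 cell. Both macrophage clusters were higher, at a ratio of 4.29 (1.69 to 13.9) in cluster 4, led by Chil3, Il1b and Cd14, genes of monocytes and inflammatory macrophages, and 1.81 (1.05 to 3.25) in cluster 20, led by Pf4, C1qc and C1qb, genes of resident macrophages.

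The macrophages and monocytes of the libraries lay in largely separate groups. Clustered on their own, 581 of the 996 in the library labelled Elf-1 KO were in a group led by Chil3 and 326 in one led by Mmp12, against 20 and 27 of 560 in WT. The leading genes of the Chil3 group also held the haemoglobin genes Hba-a1 and Hba-a2 and the neutrophil marker Lcn2. Groups led by Tppp3 and Plac8 and by Hspa1b and Asb2 held 32 and 14 cells of the library labelled Elf-1 KO, against 250 and 255 in WT. The ratios of the members in macrophages and monocytes therefore compare mostly different groups of cells, and the part of this in them was not tested.

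In smooth muscle cells and pericytes Slc7a2 was at 3.62 CPM in the library labelled Elf-1 KO and 21.1 CPM in WT, from 12 and 24 UMIs, 5.83-fold lower (ratio 0.171, 0.0781 to 0.356). Nearly all of it lay in cluster 1, led by Rgs5 and Tagln, with 11 of the 12 UMIs in the library labelled Elf-1 KO and all 24 in WT. That cluster alone was at 29.7 CPM in the library labelled Elf-1 KO and 115 CPM in WT (0.257, 0.114 to 0.545), the same direction as in the class. Endothelium was at 16.2 CPM in the library labelled Elf-1 KO and 7.66 CPM in WT, with an interval of the ratio that includes 1 (2.11, 0.842 to 6.32).

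Most UMIs of Nos2, the inducible nitric oxide synthase of activated myeloid and epithelial cells, lay in different classes in the libraries. Neutrophils of the library labelled Elf-1 KO held 251 of its 503 UMIs (49.9%) and macrophages and monocytes 150 (29.8%); in WT, epithelium held 91 of 119 (76.5%). Neutrophils were at 94.0 CPM in the library labelled Elf-1 KO (82.7 to 106) and 12.6 CPM in WT (2.6 to 36.9), from 251 and 3 UMIs, a ratio of 7.44 (2.52 to 36.3). Macrophages and monocytes were at 42.2 CPM in the library labelled Elf-1 KO and 2.08 CPM in WT, from 150 and 4 UMIs (20.3, 7.76 to 75.4). In the Chil3 group of macrophages the library labelled Elf-1 KO was at 71.9 CPM. The 20 cells of WT there had 0 UMIs, and so few cells set only a loose limit on their level. In the Tppp3 group the library labelled Elf-1 KO was at 73.7 CPM, from 6 UMIs in 32 cells, and WT at 4.02 CPM, from 3 UMIs in 250 cells. The WT levels of the myeloid classes thus rested on 3 and 4 UMIs, and the intervals of the libraries overlapped in neither class. By level, WT neutrophils stood beside WT epithelium, which was at 12.9 CPM (10.4 to 15.8). The large epithelial share of WT UMIs came with 1069 epithelial cells against 166 neutrophils. Epithelium of the library labelled Elf-1 KO was at 50.4 CPM, from 29 UMIs in 83 cells.

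A Nos2 UMI was found in 12.4% of 1263 neutrophils of the library labelled Elf-1 KO and 1.81% of 166 in WT, at median depths of 1944 and 1336 UMIs. After thinning every cell to 1000 UMIs the shares were 7.49% in the library labelled Elf-1 KO and 1.54% in WT. B cells, which should lack the gene, had 0 of 1012 cells with a UMI in the library labelled Elf-1 KO, which allows a share of up to 0.296% (3 counts of the total), and 0.118% in WT, at medians of 1162.5 and 1405 UMIs, and none in either library after thinning. In the library labelled Elf-1 KO, 42 of 1263 neutrophils held 50% of the Nos2 UMIs of their class, and the 10 highest cells held 19.1%. Fewer macrophages and monocytes carried the level, with 16 of 996 cells holding 50% of the UMIs and the 10 highest cells 36%. Among macrophages Nos2 stood highest in cluster 4, at 74.1 CPM in the library labelled Elf-1 KO and 3.34 CPM in WT (22.2, 7.41 to 109), while cluster 20 was at 15.1 CPM in the library labelled Elf-1 KO and 0.978 CPM in WT.

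The neutrophils themselves differed between the libraries. Clustered on their own, 709 of those in the library labelled Elf-1 KO lay in a group led by Cxcl3, Jchain, Ccl4 and Igha, against 13 in WT. Jchain and Igha are genes of plasma cells. Another 515 lay in a group named from granule genes of immature neutrophils such as Ltf, Camp and Ngp, against 6 in WT. Of the 166 WT neutrophils, 142 lay in another group, led by the epithelial genes Lypd8, Krt8 and Lgals4, against 32 in the library labelled Elf-1 KO. In the library labelled Elf-1 KO, Nos2 was at 129 CPM in the Cxcl3 group and 59.3 CPM in the granule group. WT had no Nos2 UMI in its 13 and 6 cells of these groups, which are too few to show a difference from those levels. Granule markers of immature neutrophils summed to 10991 CPM in the library labelled Elf-1 KO and 627 CPM in WT over all neutrophils, with 7 and 5 of 10 detected; their part in the Nos2 difference was not tested.

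Fibroblasts passed the 2-fold rule for Nos2 at low levels, 2.74 CPM in the library labelled Elf-1 KO and 0.917 CPM in WT (44 and 5 UMIs, 2.99, 1.19 to 9.66). With their clusters weighted equally, a choice made after seeing the data, the log2 ratio was 0.35, under the rule. Endothelium was at 8.77 CPM in the library labelled Elf-1 KO and 11.5 CPM in WT (0.763, 0.302 to 2.02).

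Nos3, the endothelial synthase whose nitric oxide relaxes vessels, had 77 of 101 UMIs in endothelium in the library labelled Elf-1 KO and 64 of 94 in WT. Endothelium was at 51.9 CPM in the library labelled Elf-1 KO (41 to 64.9) and 81.7 CPM in WT (62.9 to 104), a ratio of 0.636 (0.451 to 0.900) short of the 2-fold rule, and the intervals of the levels overlapped slightly. Blood endothelium (cluster 16, led by Plvap and Fabp4) was at 72.2 CPM in the library labelled Elf-1 KO and 114 CPM in WT (0.632, 0.429 to 0.931). Lymphatic endothelium (cluster 15, led by Lyve1 and Ccl21a) was at 27.9 CPM in the library labelled Elf-1 KO and 29.7 CPM in WT (0.94, 0.405 to 2.36). In the other compared classes Nos3 was at 3.71 CPM or less in both libraries.

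Arg1, the cytosolic arginase known from alternatively activated macrophages, was a macrophage gene in both libraries, with 92.5% of 1488 UMIs in macrophages and monocytes of the library labelled Elf-1 KO and 87.0% of 409 in WT. Its level there was 388 CPM in the library labelled Elf-1 KO (367 to 409) and 185 CPM in WT (167 to 206), a ratio of 2.09 (1.86 to 2.36). With cells thinned to 1000 UMIs the log2 ratio was 0.89, under the 2-fold rule. Few cells carried it: 14.5% of 996 macrophages and monocytes in the library labelled Elf-1 KO and 8.04% of 560 in WT had a UMI, at medians of 2900.5 and 3015.5 UMIs, against 0.494% and 0.197% of B cells. Thinned to 1000 UMIs, the shares were 11.2% in the library labelled Elf-1 KO and 6.33% in WT in macrophages and monocytes, and 0.286% and 0.0483% in B cells.

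The WT level of Arg1 rested on very few cells. In macrophages and monocytes 20 cells of the library labelled Elf-1 KO, but only 5 of WT, held 50% of the Arg1 UMIs, and the highest cell had 91 UMIs in each. A sub-cluster led by Prg4, Cav1 and Itga6 held 21 UMIs in 4 cells of the library labelled Elf-1 KO and 143 of the 356 UMIs in 6 cells of WT. Without it, a choice made after seeing the data, Arg1 was at 384 CPM in the library labelled Elf-1 KO and 112 CPM in WT, and the ratio was 3.42 (2.96 to 3.97).

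The higher Arg1 level lay in cluster 20, at 615 CPM in the library labelled Elf-1 KO and 214 CPM in WT (2.87, 2.48 to 3.33). Cluster 4, in contrast, was at 121 CPM in the library labelled Elf-1 KO and 152 CPM in WT (0.795, 0.636 to 0.996). Of all 1377 macrophage Arg1 UMIs in the library labelled Elf-1 KO, 1116 lay in a sub-cluster of 326 cells led by Mmp12, Marco and Pf4, at 701 CPM, of which WT had 27 cells at 243 CPM.

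Outside macrophages Arg1 was low. Plasma cells passed the rule at 6.09 CPM in the library labelled Elf-1 KO and 0.617 CPM in WT, from 25 and 3 UMIs (9.87, 3.01 to 51.1). T and innate lymphoid cells passed it at 9.27 CPM in the library labelled Elf-1 KO and 4.32 CPM in WT, with an interval that includes 1 (2.14, 0.904 to 5.63), and 15 of the 20 UMIs in the library labelled Elf-1 KO and all 8 in WT lay in cluster 19, led by Il22 and Il17a. Within that cluster Arg1 was at 31.9 CPM in the library labelled Elf-1 KO and 53.8 CPM in WT (0.592, 0.236 to 1.61); the cluster had 230 cells in the library labelled Elf-1 KO and 82 in WT.

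Arg2, the mitochondrial arginase, differed over more classes than any other member, higher in 8 of 9. It had 6590 UMIs in the library labelled Elf-1 KO and 706 in WT, 175 CPM and 23.6 CPM over all kept cells. Fibroblasts held 41.3% of them in the library labelled Elf-1 KO and 18.7% in WT, and smooth muscle cells and pericytes 13.8% in the library labelled Elf-1 KO and 0.567% in WT. Macrophages and monocytes held 19.8% in the library labelled Elf-1 KO and 39.0% in WT, and neutrophils 22.0% in the library labelled Elf-1 KO and 35.4% in WT. Most Arg2 UMIs were thus myeloid in WT and stromal in the library labelled Elf-1 KO.

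In smooth muscle cells and pericytes Arg2 was at 275 CPM in the library labelled Elf-1 KO (257 to 293) and 3.52 CPM in WT (0.959 to 9.02), from 911 and 4 UMIs, a ratio of 78.1 (30.4 to 287). Most of these cells lay in cluster 12 in the library labelled Elf-1 KO (1032 of 1190, led by Acta2, Rgs5, Rarres2 and the fibroblast gene Dcn) and in cluster 29 in WT (258 of 407, led by Tagln and Myl9). Cluster 12 alone was at 313 CPM in the library labelled Elf-1 KO and 19.6 CPM in WT, from 899 and 4 UMIs (16.0, 6.23 to 58.9). The 15 fibroblast markers, all detected, summed to 28772 CPM in this class of the library labelled Elf-1 KO and 12230 CPM in WT. In the fibroblast class itself they summed to 40212 CPM in the library labelled Elf-1 KO and 38416 CPM in WT. The class ratio thus compares mostly different groups of cells. The part of these clusters and of the fibroblast markers in the Arg2 difference was not tested.

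Fibroblasts had 169 CPM of Arg2 in the library labelled Elf-1 KO (163 to 176) and 24.2 CPM in WT (20.3 to 28.7), a ratio of 7.0 (5.88 to 8.40). Different clusters held most fibroblasts: cluster 13 (led by Mmp10, Mmp13, Mmp3 and Il11) had 1272 cells in the library labelled Elf-1 KO and 102 in WT, cluster 3 (led by Cxcl13, Ccl11 and Cxcl5) had 955 in the library labelled Elf-1 KO and 47 in WT, and cluster 26 (led by Lpl, Adamdec1 and Sfrp1) had 21 in the library labelled Elf-1 KO and 881 in WT. Cluster 13 was at 308 CPM in the library labelled Elf-1 KO and 196 CPM in WT (1.57, 1.30 to 1.93), and cluster 3 at 118 CPM in the library labelled Elf-1 KO and 46.0 CPM in WT (2.57, 1.46 to 5.0). Cluster 26 was at 3.20 CPM in WT. With clusters weighted equally the log2 ratio was 0.95, under the 2-fold rule, so that the call ended.

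**Figure D2:**
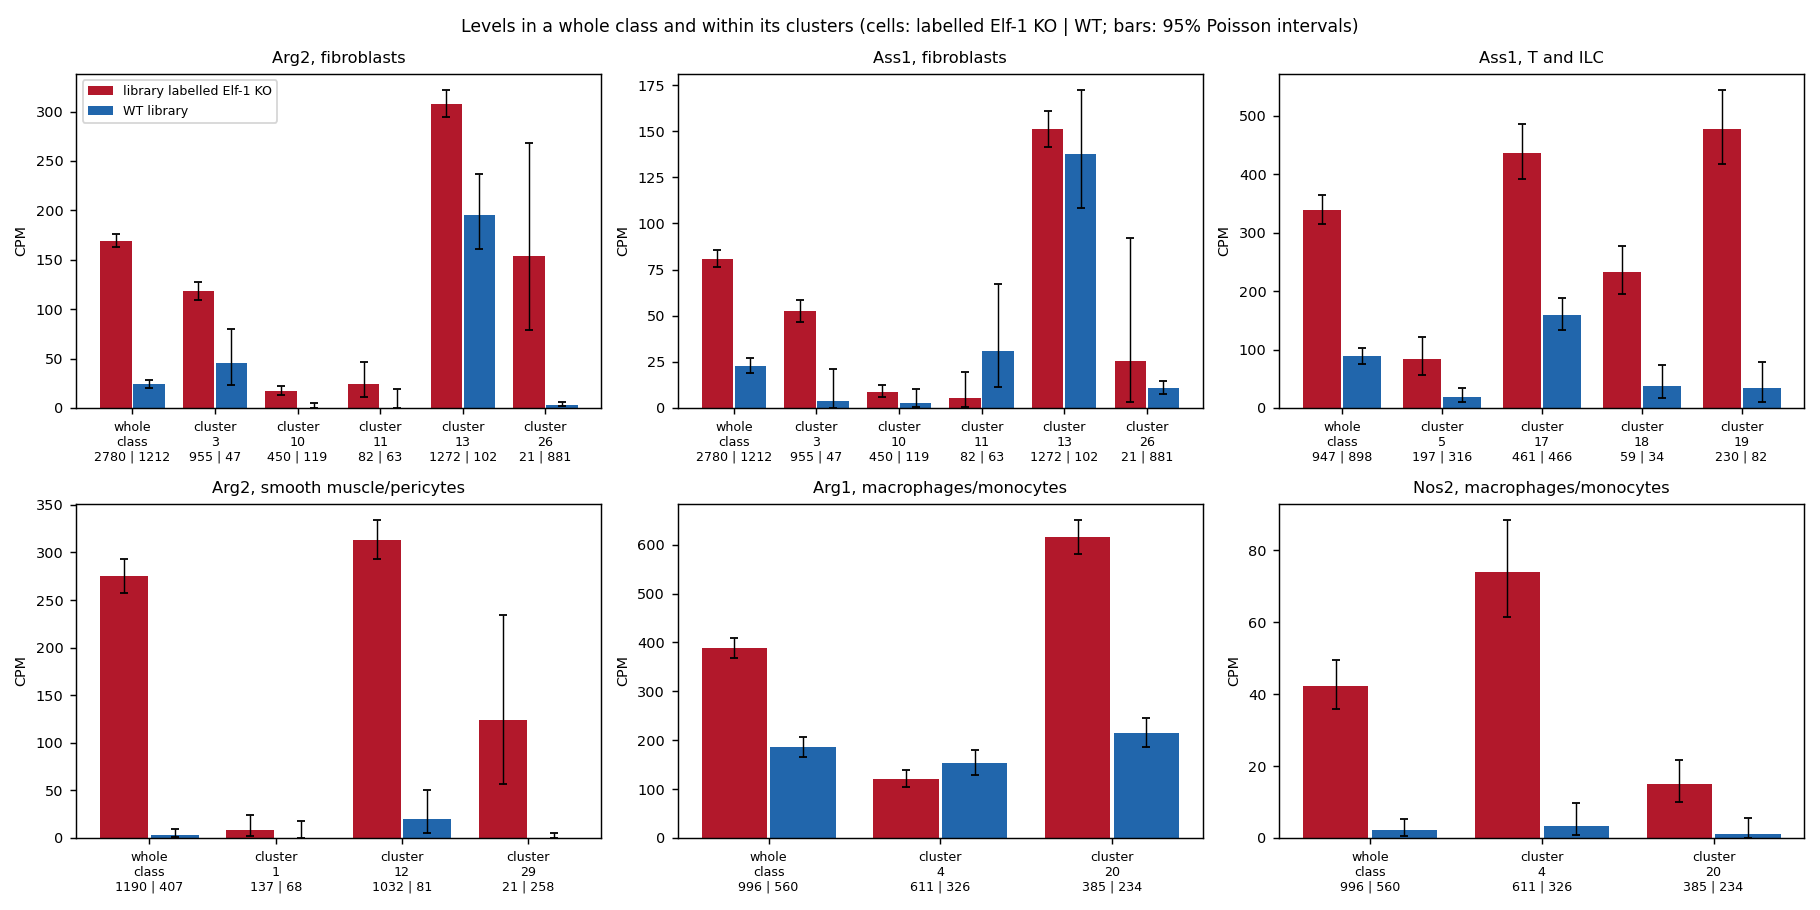
CPM of Arg2, Ass1, Arg1 and Nos2 in cell classes and in their clusters, with 95% Poisson intervals; red, at left, is the library labelled Elf-1 KO and blue, at right, WT. Arg2 and Ass1 in fibroblasts differed by ratios of 7.0 and 3.53 over the class and 1.57 and 1.10 in cluster 13.

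A UMI of Arg2 was found in 38.1% of 2780 fibroblasts of the library labelled Elf-1 KO and 4.62% of 1212 in WT, at medians of 5560 and 4247.5 UMIs, against 2.17% and 0.276% of B cells. Thinned, the shares were 14.3% in the library labelled Elf-1 KO and 1.92% in WT in fibroblasts, and 1.57% and 0.193% in B cells. In smooth muscle cells and pericytes the thinned shares were 19.2% in the library labelled Elf-1 KO and 0% in WT, which by the same measure allows up to 0.798%. The stromal counts were broad, with 255 fibroblasts of the library labelled Elf-1 KO holding 50% of the UMIs and no cell above 17.

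Macrophages and monocytes had 368 CPM of Arg2 in the library labelled Elf-1 KO and 143 CPM in WT (2.57, 2.25 to 2.94), and both clusters were higher, with ratios of 2.05 (1.76 to 2.39) in cluster 4 and 4.73 (3.57 to 6.37) in cluster 20. Neutrophils went the other way, at 542 CPM in the library labelled Elf-1 KO (514 to 571) and 1052 CPM in WT (926 to 1191), a ratio of 0.515 (0.450 to 0.591) that misses the 2-fold rule. They had the highest Arg2 level among the compared classes in both libraries. Dendritic cells had 29 UMIs in the library labelled Elf-1 KO and 0 in WT, at least 9.08-fold higher against a floor of 3 UMIs in the class, and endothelium 23 and 0, at least 4.05-fold higher. These bounds set WT to the floor and leave out the counting error of the library labelled Elf-1 KO; the dendritic bound was a log2 ratio of 1.09 with at most 10% mitochondrial UMIs, and the endothelial one 1.39 with the free-RNA bound subtracted.

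B cells, T and innate lymphoid cells, plasma cells and endothelium were at 4.87 to 16.2 CPM of Arg2 in the library labelled Elf-1 KO, only 1.00 to 2.82 times the bound for free RNA. Neutrophil markers were higher in the same 4 classes, with ratios of 5.12 to 15.7, and so were fibroblast markers, with ratios of 2.23 to 3.87; the part of either in these levels was not tested.

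In the library labelled Elf-1 KO, Arg2 UMIs per Acod1 UMI were 0.240 in neutrophils, 6.56 in fibroblasts and 24.0 in smooth muscle cells and pericytes; in WT they were 0.154, 2.32 and 0.80, the last from only 4 Arg2 and 5 Acod1 UMIs.

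Ass1, argininosuccinate synthase, had 3173 UMIs in the library labelled Elf-1 KO and 1579 in WT, and was higher in T and innate lymphoid cells and in fibroblasts. Among the compared classes dendritic cells had its highest level, 396 CPM in the library labelled Elf-1 KO and 226 CPM in WT (1.75, 1.36 to 2.25). Enteric glia and neurons, too few to compare, were at 633 CPM in 42 cells of the library labelled Elf-1 KO and 486 CPM in 26 cells of WT.

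T and innate lymphoid cells had 339 CPM of Ass1 in the library labelled Elf-1 KO (315 to 364) and 88.6 CPM in WT (75.6 to 103), a ratio of 3.82 (3.22 to 4.56). Cluster 19, led by Il22 and Il17a, genes of type 17 lymphocytes, was at 478 CPM in the library labelled Elf-1 KO and 33.6 CPM in WT (225 and 5 UMIs, 14.2, 6.00 to 44.2). Cluster 17, led by Trbc2, Tnfrsf4 and Trac, was at 437 CPM in the library labelled Elf-1 KO and 159 CPM in WT (2.74, 2.25 to 3.36). Cluster 5, led by the cytotoxic genes Ccl5 and Gzma, was at 83.8 CPM in the library labelled Elf-1 KO and 19.4 CPM in WT (4.32, 2.13 to 9.32). The direction was thus the same in each of these clusters, and the class ratio stayed above 2 under every alternative tried.

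A UMI of Ass1 was found in 32.4% of 947 T and innate lymphoid cells of the library labelled Elf-1 KO and 12.7% of 898 in WT, at medians of 1480 and 1748.5 UMIs, and after thinning in 22.6% in the library labelled Elf-1 KO and 7.85% in WT. Neutrophils, lowest in Ass1 level of the 9 compared classes in both libraries, had a UMI in 1.19% of cells in the library labelled Elf-1 KO and 0.602% in WT, at the median depths given above.

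Fibroblasts had 80.8 CPM of Ass1 in the library labelled Elf-1 KO and 22.9 CPM in WT (3.53, 2.93 to 4.27). Cluster 13 was nearly even, at 151 CPM in the library labelled Elf-1 KO and 138 CPM in WT (1.10, 0.867 to 1.40), and equal weighting of clusters gave a log2 ratio of 0.31. Cluster 13 had more of both Ass1 and Arg2 than clusters 3, 10 and 11 in both libraries. Macrophages and monocytes were at 131 CPM in the library labelled Elf-1 KO and 144 CPM in WT (0.906, 0.779 to 1.06), which joined a lower level in cluster 4 (0.460, 0.370 to 0.571) to a higher one in cluster 20 (1.85, 1.46 to 2.38).

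Odc1, ornithine decarboxylase, the rate-limiting enzyme of polyamine synthesis, was lower in plasma cells, macrophages and monocytes and dendritic cells. Over all kept cells it was at 63.9 CPM in the library labelled Elf-1 KO and 81.0 CPM in WT (0.790, 0.746 to 0.836). T and innate lymphoid cells had its highest level among the compared classes of both libraries, 348 CPM in the library labelled Elf-1 KO and 208 CPM in WT (1.67, 1.48 to 1.90).

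Plasma cells were at 32.1 CPM of Odc1 in the library labelled Elf-1 KO and 81.4 CPM in WT (0.395, 0.322 to 0.482). Macrophages and monocytes were at 67.0 CPM in the library labelled Elf-1 KO and 137 CPM in WT (0.488, 0.408 to 0.583), with ratios of 0.496 in cluster 4 and 0.480 in cluster 20. Dendritic cells were at 31.9 CPM in the library labelled Elf-1 KO and 83.8 CPM in WT (15 and 37 UMIs, 0.381, 0.194 to 0.711). The macrophage call ended under TMM scaling, at a log2 ratio of -0.93, the plasma cell call with cells thinned to 1000 UMIs, at -0.33, and with per-cell means, at -0.90, and the dendritic cell call with doublets kept, at -0.50. None of the 3 lower Odc1 calls thus held under every alternative.

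In fibroblasts Odc1 was at 44.1 CPM in the library labelled Elf-1 KO and 55.2 CPM in WT (0.799, 0.697 to 0.917), but cluster 13 was at 33.6 CPM in the library labelled Elf-1 KO and 149 CPM in WT (0.226, 0.175 to 0.296) and cluster 3 at 40.8 CPM in the library labelled Elf-1 KO and 88.1 CPM in WT (0.463, 0.301 to 0.745). In both of these clusters Odc1 was thus lower and Arg2 higher in the library labelled Elf-1 KO, and equal weighting of all fibroblast clusters gave Odc1 a log2 ratio of -1.02.

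Acod1, aconitate decarboxylase, was a neutrophil gene, with 73.2% of 8230 UMIs in neutrophils of the library labelled Elf-1 KO and 71.2% of 2274 in WT. Within neutrophils it was lower, at 2255 CPM in the library labelled Elf-1 KO (2199 to 2313) and 6815 CPM in WT (6487 to 7155), 3.02-fold lower (ratio 0.331, 0.313 to 0.350). A UMI was found in 83.8% of 1263 neutrophils of the library labelled Elf-1 KO and 93.4% of 166 in WT, and in 1.98% and 0.551% of B cells. Thinned to 1000 UMIs, the shares were 72.0% in the library labelled Elf-1 KO and 89.2% in WT in neutrophils, and 0.858% and 0.193% in B cells.

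Most neutrophils of each library lay in groups with different Acod1 levels. In the library labelled Elf-1 KO the Cxcl3 group was at 3119 CPM and the granule group at 1296 CPM, while the Lypd8 group that holds most WT neutrophils was at 7243 CPM in WT. The 32 cells of the library labelled Elf-1 KO in that Lypd8 group were at 4714 CPM, and WT was at 4954 CPM in 13 cells of the Cxcl3 group and 2620 CPM in 6 of the granule group. In each of these 3 groups the WT level was the higher one. In the Cxcl3 and granule groups, however, it rests on 13 and 6 cells. Such small groups set these levels only loosely, so that a difference within groups is not shown.

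Over all kept cells, with more neutrophils in the library labelled Elf-1 KO, Acod1 was at 219 CPM there and 75.9 CPM in WT (2.89, 2.76 to 3.03). Macrophages and monocytes were at 416 CPM in the library labelled Elf-1 KO and 249 CPM in WT (1.67, 1.51 to 1.86), with ratios of 2.41 (2.03 to 2.87) in cluster 20 and 1.28 (1.12 to 1.47) in cluster 4. Endothelium passed the 2-fold rule at 30.3 CPM in the library labelled Elf-1 KO and 5.10 CPM in WT (45 and 4 UMIs, 5.95, 2.17 to 22.8). Fibroblasts passed it at 25.8 CPM in the library labelled Elf-1 KO and 10.5 CPM in WT (2.47, 1.87 to 3.32), but cluster 13 had a ratio of 0.507 (0.345 to 0.768) and equal weighting of clusters gave a log2 ratio of 0.17. B cells, T and innate lymphoid cells and smooth muscle cells and pericytes passed at only 1.00 to 2.32 times the bound for free RNA. In smooth muscle cells and pericytes the call ended with that bound subtracted, at a log2 ratio of 0.16, and with clusters weighted equally, at 0.62. Neutrophil markers were higher in all of these classes, and their part was not tested.

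**Figure D3:**
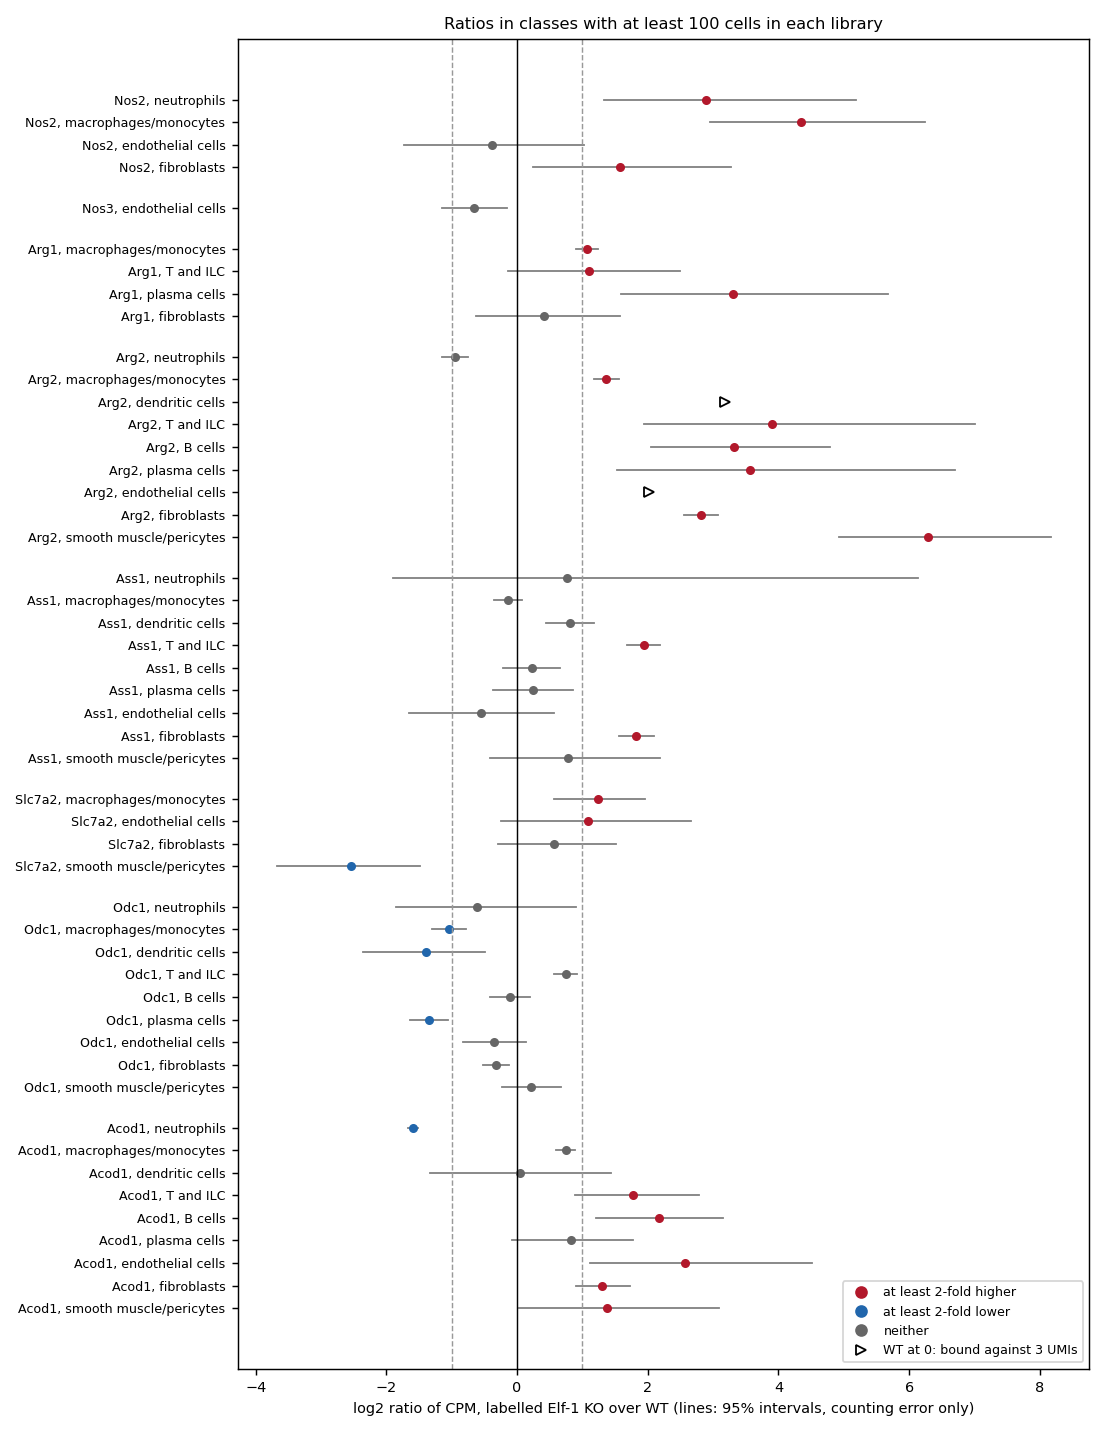
Log2 ratio of CPM, library labelled Elf-1 KO over WT, for the 49 member-by-class pairs with at least 20 UMIs, with 95% intervals for counting error dashed lines at 2-fold, and open triangles for bounds where WT had 0 UMIs. At or beyond the right dashed line lie 23 pairs and at or beyond the left one 5, among them Acod1 in neutrophils.

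**Figure D4:**
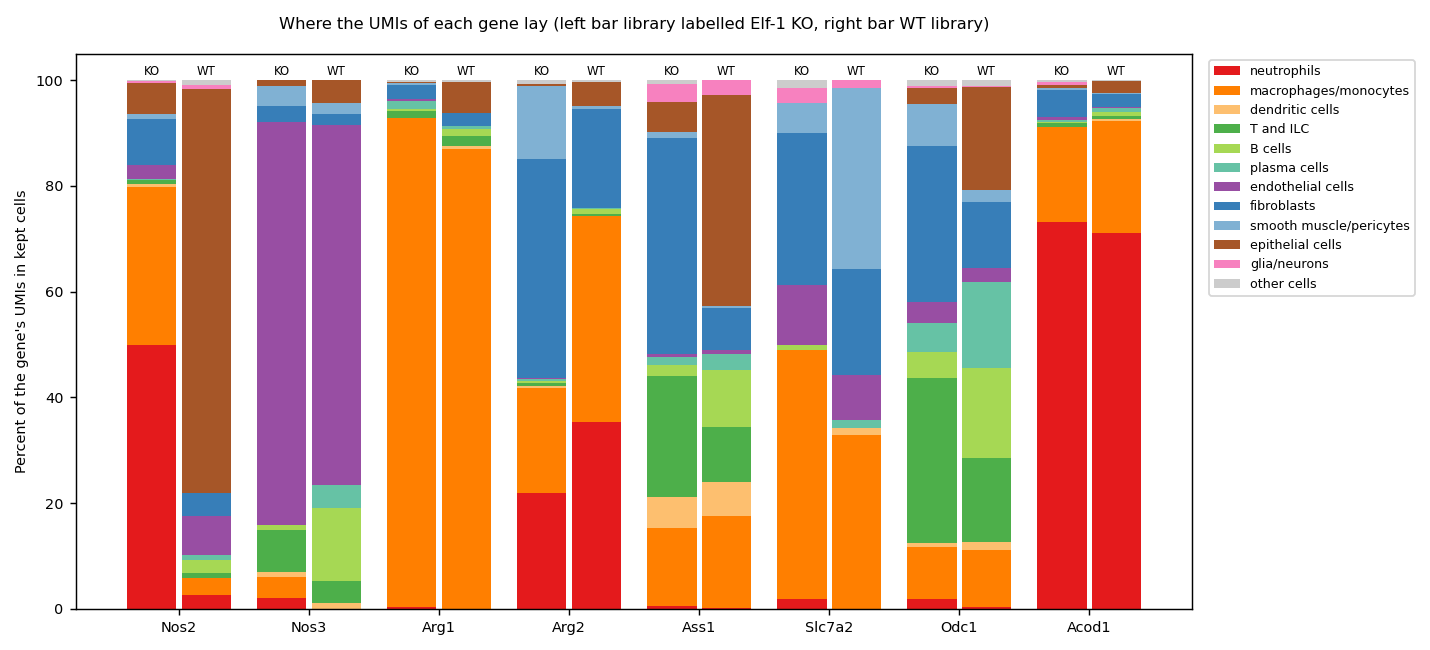
Percent of each gene's UMIs in kept cells by cell class, with the library labelled Elf-1 KO in the left bar and WT in the right bar of each pair. Neutrophils held 49.9% of Nos2 UMIs in the library labelled Elf-1 KO, against 2.52% in WT, and fibroblasts 41.3% of Arg2 UMIs in the library labelled Elf-1 KO, against 18.7% in WT.

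Nos2 and Arg1 are often used as opposing macrophage markers, and their overlap was counted cell by cell. Among 996 macrophages and monocytes of the library labelled Elf-1 KO, 66 had a Nos2 UMI, 144 an Arg1 UMI and 17 both, 25.8% of the Nos2 cells and 11.8% of the Arg1 cells. WT had 2 Nos2 cells and 45 Arg1 cells among 560, and 0 with both. Acod1 was found in 44 of the 66 Nos2 cells of the library labelled Elf-1 KO, 66.7% of them and 11.6% of the 380 Acod1 cells. After thinning to 1000 UMIs, 7 of 33 Nos2 cells had an Arg1 UMI and 10 an Acod1 UMI, so that the shares moved with depth. Among neutrophils of the library labelled Elf-1 KO, 137 of 156 Nos2 cells had an Acod1 UMI and 0 an Arg1 UMI. Of all 1263 neutrophils there, 1059 had an Acod1 UMI and only 4 an Arg1 UMI. After thinning, 64 of 88 Nos2 cells had an Acod1 UMI, beside 846 of all 1175 cells, so that the shares lay close together.

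Levels were also set beside each other over 24 points, the classes with 40 cells or more in each library, as log2(CPM + 1); points of 1 library share its depth and free RNA. The members most alike were Arg2 and Acod1 (Pearson r 0.80) and then Nos2 and Acod1 (0.68). Among 12231 genes, those most like Acod1 were Csf3r (0.96), the receptor for granulocyte colony-stimulating factor, Clec4d and C5ar1. Those most like Nos2 were Cd177 (0.85), a neutrophil surface protein, Lrg1 and Kcnj2, and those most like Arg2 were Hp (0.93), which encodes haptoglobin, Cxcl2 and Mmp8. Arg1 was most like H2-M2 (0.88), Ms4a7 and C3ar1, Ass1 like Pcgf5 (0.85), Ssx2ip and Crybg1, Slc7a2 like Rgl1 (0.87), Sdc3 and Ctsb, and Odc1 like Amz2 (0.91), Nme1 and Zfp330. Nos3, with under 200 UMIs, was left out.

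Other genes of these pathways, 85 of 87 listed being found, gave 535 gene-by-class pairs. Of these, 30 were at least 2-fold higher in the library labelled Elf-1 KO (5.61%) and 70 lower (13.1%), beside 7.12% and 10.6% of all pairs. With TMM scaling the counts were 37 higher and 53 lower. Without it, the share lower differed between lists: 30.4% for synthase partners and inhibitor clearance, 33.3% for the nitric oxide receptor and cyclic GMP, and 23.7% for tetrahydrobiopterin. The other lists had 0 to 14.6% lower, and all lists had 1.45% to 8.93% higher. Partners of the nitric oxide synthases and enzymes that clear their inhibitors had 1 of 69 pairs higher and 21 lower, with median log2 ratios by class of -0.79 in macrophages and monocytes (-0.12 over all genes) to 0.17 in T and innate lymphoid cells (0.08 over all genes).

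Hsp90aa1, a chaperone that binds the synthases, was lower in 6 classes. Among them, macrophages and monocytes were at 305 CPM in the library labelled Elf-1 KO and 894 CPM in WT (0.341, 0.315 to 0.368). Plasma cells were at 62.8 CPM in the library labelled Elf-1 KO and 249 CPM in WT. Hsp90ab1, of the same list, was lower in B cells, dendritic cells, macrophages and monocytes and plasma cells, with ratios of 0.382 to 0.447. Hsp90aa1 and Hsp90ab1 thus held a large part of the lower pairs of this list. Whether heat-shock genes as a whole differed between the libraries was not tested. Cav1, caveolin-1, which holds Nos3 inactive in endothelium, was lower in smooth muscle cells and pericytes, at 80.6 CPM in the library labelled Elf-1 KO and 360.0 CPM in WT (0.224, 0.191 to 0.262). Nostrin, which traffics Nos3, was higher in dendritic cells, at 387 CPM in the library labelled Elf-1 KO and 113 CPM in WT (3.42, 2.49 to 4.78).

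Enzymes of tetrahydrobiopterin, the cofactor of the nitric oxide synthases, had 1 of 38 pairs higher and 9 lower. The higher one was Gch1, its rate-limiting enzyme, in smooth muscle cells and pericytes, at 106 CPM in the library labelled Elf-1 KO and 35.2 CPM in WT (3.01, 2.16 to 4.28). Pts, the next enzyme of the pathway, was lower in fibroblasts (ratio 0.314, 0.251 to 0.392). Of the nitric oxide receptor and cyclic GMP genes, 1 of 27 pairs was higher and 9 lower. Gucy1a1, a subunit of the receptor, was at 16.2 CPM in endothelium of the library labelled Elf-1 KO and 98.2 CPM in WT (0.165, 0.0996 to 0.263). Mrvi1, a substrate of cyclic GMP-dependent kinase, was lower in smooth muscle cells and pericytes (0.204, 0.142 to 0.290). Of the 9 lower pairs, 4 lay in smooth muscle cells and pericytes and 3 in fibroblasts. Most cells of these classes lay in different clusters in the libraries, and the part of this was not tested.

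Polyamine genes had 7 of 94 pairs higher and 7 lower. Smox, spermine oxidase, was higher in T and innate lymphoid cells, at 101 CPM in the library labelled Elf-1 KO and 24.9 CPM in WT (4.04, 2.93 to 5.69), and lower in neutrophils, at 242 CPM in the library labelled Elf-1 KO and 661 CPM in WT (0.367, 0.307 to 0.439). Arginine transport had 3 of 36 pairs higher and 0 lower, and recycling, urea cycle and proline genes 2 of 41 higher and 6 lower. Gatm, which starts creatine synthesis from arginine, was lower in macrophages and monocytes, at 29.0 CPM in the library labelled Elf-1 KO and 99.4 CPM in WT (0.292, 0.227 to 0.373), and Pycr1, of proline synthesis, in fibroblasts (0.249, 0.17 to 0.361).

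Itaconate supply and target genes had 5 of 118 pairs higher and 9 lower. Slc13a3, a carrier of dicarboxylates, was higher in macrophages and monocytes, at 52.9 CPM in the library labelled Elf-1 KO and 14.6 CPM in WT (3.63, 2.43 to 5.61). Nfe2l2, the antioxidant regulator that itaconate activates, was lower in neutrophils, as Acod1 was, at 479 CPM in the library labelled Elf-1 KO and 1111 CPM in WT (0.431, 0.378 to 0.494). Atf3, a stress-induced transcription factor, was lower in neutrophils (0.278), smooth muscle cells and pericytes (0.192), endothelium (0.382) and dendritic cells (0.406).

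Inducers and regulators had 10 of 112 pairs higher and 9 lower. Irf1, an interferon-induced transcription factor, was lower in endothelium, at 66.1 CPM in the library labelled Elf-1 KO and 212 CPM in WT (0.312, 0.241 to 0.403). Hif1a, the hypoxia-inducible factor, was higher in fibroblasts, at 443 CPM in the library labelled Elf-1 KO and 175 CPM in WT (2.53, 2.37 to 2.71), and in smooth muscle cells and pericytes, at 572 CPM in the library labelled Elf-1 KO and 183 CPM in WT (3.12, 2.71 to 3.62). Il4ra, a chain of the interleukin-4 receptor, was higher in smooth muscle cells and pericytes (2.82, 1.94 to 4.24), and Cebpb, a transcription factor of myeloid genes, in B cells (3.59, 3.21 to 4.01) and dendritic cells (2.55, 1.91 to 3.43). Neutrophil markers had ratios of 15.7 in B cells and 4.67 in dendritic cells, and their part in the Cebpb values was not tested. Pathway genes were not set beside the bound for free RNA. Smooth muscle cells and pericytes, fibroblasts and the myeloid classes lay mostly in different clusters or groups in the libraries. The part of this in the pathway ratios, such as those of Cav1, Gch1, Hif1a and Il4ra, was not tested.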

How the data were processed

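Single-cell RNA libraries of pooled colon, 1 from mice labelled Elf-1 KO and 1 from WT mice, were deposited as matrices of raw UMI counts per gene and barcode; per the submitters' processing notes the authors used cutadapt 1.17, STAR 2.6.1a, featureCounts 2.0.1 and GRCm38. Every listed barcode held at least 500 UMIs, as tested on the files. How the authors told cells from empty droplets is not stated in the labels.

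From these counts, barcodes with under 200 genes (239 in the library labelled Elf-1 KO, 117 in WT) or over 25% mitochondrial UMIs (83 in the library labelled Elf-1 KO, 438 in WT) were removed. Doublets were removed with scrublet: 230 barcodes in the library labelled Elf-1 KO, and in WT, where the caller marked 2 (0.0246%) and so had not worked, the 406 with the highest scores. Cells of both libraries were clustered together with scanpy 1.11.5 on 2000 variable genes, 30 components and 15 neighbours (Leiden resolution 1), the 8 genes and the pathway genes left out. Clusters were named from marker lists among their leading genes; the exact rule for this was settled with the clusters already in view, and 165 cells of the library labelled Elf-1 KO and 25 of WT stayed unnamed. No integration was applied, so that clusters held mostly by 1 library may reflect that library.

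UMIs were summed per class and divided by the class total. Intervals are exact Poisson for levels, exact conditional binomial for ratios and Clopper-Pearson for shares, all at 95%; they cover counting error and not differences between mice. With 1 library a group there is no test and no p-value. A pair was called at a ratio of 2 or more, or 0.5 or less, with at least 20 UMIs. A count of 0 was set to a floor of 3 UMIs, and a share of 0 is given with the limit that 3 counts of the total set. The ratio code was tested on simulated counts. The 8 genes, the marker and pathway lists and the rules were chosen with earlier results of these data known. Pathway genes named had at least 50 UMIs in the class, a called ratio and an interval without 1, at most the 4 farthest from 1 per class and direction, and the text shows a part of them, with 1 gene counted in its list but not reported here; the 3 genes most like a member were taken from genes with at least 200 UMIs. Counting was by exons or whole genes and by strand in a way not stated, so reads of overlapping or antisense genes cannot be told apart.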

Additional observations from a re-analysis of the deposited data

Results flagged for a closer look

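Slc7a2 differed in opposite directions between cell classes, with a ratio (library labelled Elf-1 KO over WT) of 0.171 in smooth muscle cells and pericytes and 2.35 in macrophages and monocytes. Acod1 did likewise over whole classes, at 0.331 in neutrophils and 2.47 in fibroblasts. The fibroblast call ended with clusters weighted equally, at a log2 ratio of 0.17, and fibroblast cluster 13 was lower, as neutrophils were. Neutrophil markers in fibroblasts had a ratio of 5.21, and their part was not tested. With 1 library a group, neither difference between classes was tested.

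Cell classes too small in 1 library to be compared also held these genes above the lowest class. Nos2 in epithelium was at 50.4 CPM in the library labelled Elf-1 KO and 12.9 CPM in WT (29 and 91 UMIs, ratio 3.92), and epithelium was mostly enteroendocrine in the library labelled Elf-1 KO (68 of 83 cells) and not in WT (34 of 1069). Arg2 in epithelium had a ratio of 10.4 (27 and 32 UMIs in the library labelled Elf-1 KO and WT) and Acod1 one of 10.3 (41 and 49 UMIs), while neutrophil markers in epithelium had a ratio of 23.1. Ass1 in epithelium had a ratio of 3.55, with 100 of its 182 UMIs in 1 cell in the library labelled Elf-1 KO. Acod1 in enteric glia and neurons had a ratio of 12.5, from 46 UMIs in 42 cells of the library labelled Elf-1 KO and 2 UMIs in 26 cells of WT, while neutrophil markers there had a ratio of 11.5. The part of neutrophil RNA in these values was not tested.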

How the results depend on the processing

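Against 23 pairs higher and 5 lower, 11 were higher and 3 lower with each cell thinned to 1000 UMIs, where 26 pairs kept 20 UMIs. At a minimum of 100 UMIs, where fewer pairs are counted, 10 were higher and 3 lower. At a minimum of 1 UMI, 9 counted as lower. Among these, Nos3, Arg1 and Slc7a2 in neutrophils had 2, 4 and 4 UMIs in the library labelled Elf-1 KO and 0 in WT. They counted as lower only because the WT 0 was set to the floor of 3 UMIs, and show no lower level. Higher pathway pairs were 14 at a minimum of 100 UMIs, against 30. Arg1 in T and innate lymphoid cells reversed to a log2 ratio of -0.50 with clusters weighted equally; this alternative weights cluster 19 like the others. The other alternatives (TMM scaling, per-cell means, doublets kept, 10% mitochondrial limit, Leiden resolution 0.5 or 2.0, libraries clustered alone, the 8 genes among the variable genes, the free-RNA bound subtracted and, added after seeing the data, clusters of 40 cells or more in each library weighted equally, no Arg1-rich sub-cluster and no shared barcodes) kept both counts within 1.5 times. Of 28 called pairs, 18 stayed called in the same direction under every alternative that gave a value. Of 671 recomputed single ratios 630 lay within the interval first given, 40 moved and 1 reversed.

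Fewer than 20 UMIs in WT stood behind 16 of the 23 higher pairs and limit the precision of those ratios; Arg1 in T and innate lymphoid cells and Slc7a2 in endothelium had intervals that include 1. No paired analysis was possible because each group has 1 library, and no replicate could be left out. Differences between mice, dissections or days cannot be told apart from the label.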
